A study of Mus musculus with 77 samples.

Results

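Myelin and oligodendrocyte RNA was followed through 77 purifications of spiny projection neuron RNA with 9 genes: Mbp, Mal, Mag, Mog, Mobp, Cnp, Ugt8a, Cldn11 and Pdgfra. The members were all probe sets on the array with 1 of these symbols as their single annotated symbol, which gave 26 probe sets for 9 of the 18194 genes that could be named this way. Of the 26, 25 had a mean above the filter on low values (3.55 on the log2 scale, which 40% of all probe sets did not reach), and 1 of the 3 Pdgfra probe sets was below it. Each gene was read on its probe set with the highest mean, and all 9 were among the 13271 genes tested.

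Oligodendrocytes wrap axons in myelin, a stack of membrane that is held together by a small set of abundant proteins and is rich in galactolipids. Spiny projection neurons are not myelin-forming cells, and the dorsal striatum holds oligodendrocytes in the bundles of fibres that cross it, so RNA of these genes in a purified neuronal sample is widely read as a gauge of glial carry-over. Among the members, Mbp encodes the basic protein that compacts the cytoplasmic faces of the membrane, and Mobp encodes another small basic myelin protein. Mal and Cldn11 encode membrane proteins of myelin, Cldn11 being the tight junction claudin of the sheath. Mag and Mog encode immunoglobulin-type surface proteins, on the inner and the outermost layers of the sheath. Cnp encodes an enzyme of the uncompacted layers and Ugt8a the enzyme that makes the galactosylceramide of myelin. Pdgfra, the receptor for platelet-derived growth factor, marks progenitors rather than mature oligodendrocytes.

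The samples were RNA from translating ribosome affinity purification, in which messenger RNA on ribosomes that carry a green fluorescent tag (EGFP-L10a) is pulled down with antibodies to the tag. The mice were adult males of 9 to 14 weeks on a C57BL/6J background, and each carried a bacterial artificial chromosome transgene, either Drd1::EGFP-L10a (line CP73), which tags direct pathway neurons (dSPN), or Drd2::EGFP-L10a (line CP101), which tags indirect pathway neurons (iSPN). In each line, mock-lesioned mice were injected with vehicle in the right medial forebrain bundle and then received chronic saline (10 dSPN and 10 iSPN arrays). Lesioned mice received 6-hydroxydopamine there at 3.2 µg/µl, which removes the dopamine input of the striatum, and were kept if their behaviour showed the lesion. They then had daily saline (11 dSPN and 7 iSPN arrays), low-dose levodopa (1 mg/kg for days 1 to 3, then 2 mg/kg until day 9; 12 and 8 arrays), or high-dose levodopa (3 mg/kg and, from day 4, 6 mg/kg; 11 and 8 arrays). Levodopa was given with 12 mg/kg benserazide, which blocks its conversion outside the brain. Each array held RNA of the dorsal striatum of the lesioned side of a single mouse. Mice of both drug groups were compared with the lesioned mice on saline, so the comparisons with either dose share those control arrays.

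The tagged receptors matched the labels in every array. Drd1 lay between 11.1 and 11.9 in the 44 dSPN arrays and between 8.68 and 10.5 in the 33 iSPN arrays, and Drd2 between 5.14 and 8.08 in dSPN and between 11.9 and 12.7 in iSPN, on the log2 scale. The median correlation of an array with the others of its group ran from 0.939 to 0.980, and the lowest were replicate 3 of the iSPN mock group and replicate 7 of the iSPN lesion group on saline. The title numbers formed 7 runs, stretches in which the animal number rises, and each run lay within a line. No gene had a run effect at an adjusted p under 0.05 in a limma fit of group and run. That test could separate run from group only in part. All 8 high-dose iSPN arrays lay in a single run, as did all 8 low-dose iSPN arrays and 11 low-dose dSPN arrays. Values are log2 expression that the authors brought to a common distribution, so each change is relative to the other RNA in the same sample. In such bulk samples, fewer oligodendrocytes, less RNA per oligodendrocyte, and less of their RNA carried through the purification cannot be told apart.

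As a description, the stretches before the start sites are shown for 4 of the 8 mature members (all except Pdgfra). Whether these sequences bear on any change or correlation reported here was not tested. RefSeq sequence (GRCm38.p6) was at hand for 8 members, and Mbp is named only. The 250 bases before the most upstream start site were searched for ACAAAG, the core that SOX factors such as Sox10, a main regulator of myelin genes, bind, on either strand. The motif was in 16.5% of all 32851 promoters in the table and in 3 of the 8 members: Mobp held 6 copies, Mag 1 and Cnp 1. Of all the promoters, 1 held 6 or more copies, that of Mobp. Mal, printed for contrast, Cldn11, Ugt8a, Mog and Pdgfra held none, which says only that these letters are not in that window. The windows are chr9:120149492-120149741 on the plus strand for Mobp, chr7:30914923-30915172 on the minus strand for Mag, chr11:100574689-100574938 on the plus strand for Cnp and chr2:127656696-127656945 on the minus strand for Mal. They are printed 5′ to 3′ along the gene, with the motif (ACAAAG, or CTTTGT where it lies on the other strand) in capitals.
Mobp: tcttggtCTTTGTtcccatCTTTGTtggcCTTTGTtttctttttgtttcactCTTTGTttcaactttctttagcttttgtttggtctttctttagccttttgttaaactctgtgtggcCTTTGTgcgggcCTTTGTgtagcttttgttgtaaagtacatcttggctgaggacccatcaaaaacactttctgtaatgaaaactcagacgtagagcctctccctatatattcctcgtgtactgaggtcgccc
Mag: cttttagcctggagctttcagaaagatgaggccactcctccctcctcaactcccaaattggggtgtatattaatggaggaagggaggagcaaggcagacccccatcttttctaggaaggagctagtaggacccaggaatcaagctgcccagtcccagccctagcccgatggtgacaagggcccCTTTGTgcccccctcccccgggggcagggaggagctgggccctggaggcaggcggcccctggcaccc
Cnp: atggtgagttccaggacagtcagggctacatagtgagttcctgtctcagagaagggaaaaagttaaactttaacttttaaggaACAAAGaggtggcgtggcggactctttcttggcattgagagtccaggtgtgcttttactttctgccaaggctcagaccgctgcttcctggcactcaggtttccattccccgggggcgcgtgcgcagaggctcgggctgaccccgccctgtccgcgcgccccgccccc
Mal: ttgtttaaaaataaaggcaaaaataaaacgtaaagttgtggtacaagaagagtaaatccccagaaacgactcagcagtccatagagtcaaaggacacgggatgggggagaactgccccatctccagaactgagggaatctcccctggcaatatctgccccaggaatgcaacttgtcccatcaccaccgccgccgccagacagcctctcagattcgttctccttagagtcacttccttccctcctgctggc

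In mock-lesioned mice, which show the lines without a lesion or drug, RNA of mature oligodendrocytes was lower in the dSPN purifications than in the iSPN purifications. Cldn11, the claudin of the myelin sheath, had its lowest, median and highest dSPN value at 6.90, 7.60 and 8.10 and its iSPN values at 8.18, 8.80 and 9.99. The highest dSPN array therefore lay below the lowest iSPN array. Cldn11 was lower in dSPN by a log2 difference of -1.32 (SE 0.201, n = 10 and 10, adjusted p 4.8e-07 in the limma fit), or 2.5-fold. Mobp ran from 8.18 over a median of 8.62 to 9.46 in dSPN and from 9.12 over 10.15 to 11.06 in iSPN, so that 9 of the 10 dSPN arrays were below all iSPN arrays. The difference for Mobp was -1.39 (SE 0.236, adjusted p 4.9e-06). Mbp ran from 9.86 over 10.34 to 11.02 in dSPN and from 10.56 over 11.21 to 11.90 in iSPN, and 8 dSPN arrays lay below the iSPN range. Its difference was -0.86 (SE 0.202, adjusted p 0.00086). The share of all genes with arrays separated in this way was not counted. In the limma fit 22.5% of all genes were called between the lines here.

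Cnp (-0.85, SE 0.173), Ugt8a (-1.24, SE 0.323) and Mal (-0.62, SE 0.235) were also lower in dSPN, so 6 of the 9 members passed at adjusted p under 0.05, all lower in dSPN, where 10.9% of all genes tested were lower. The call of Mal was close to the threshold (adjusted p 0.0473) and was lost with array weights (0.0717), without a filter (0.0614) and without replicate 3 of the iSPN mock group (0.107). Mag missed the threshold (-0.79, adjusted p 0.0663, 95% interval -1.43 to -0.15). Mog (0.02, interval -0.44 to 0.49) and Pdgfra (-0.37, interval -0.83 to 0.10) missed it as well. Mog was at 4.64 ± 0.60 in dSPN and 4.62 ± 0.52 in iSPN (SD, n = 10 each).

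**Figure D1:**
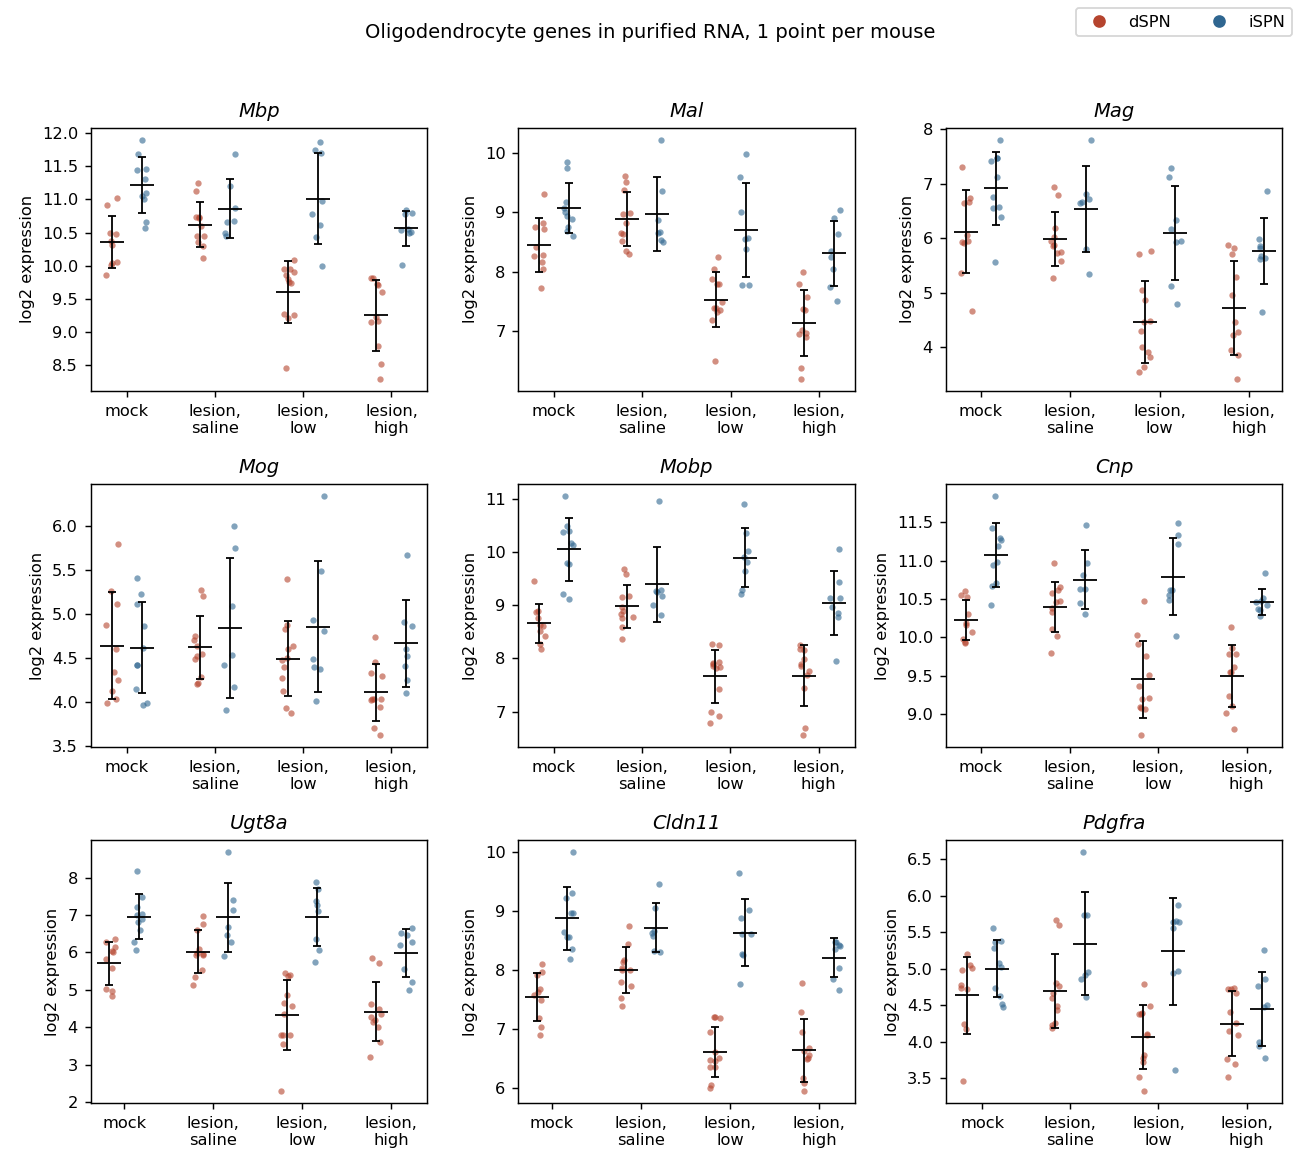
Log2 expression (vertical axis) of the 9 genes in the 8 groups (horizontal axis), with 1 point per mouse, dSPN in red and iSPN in blue; black marks are the mean and SD. For Mbp, the dSPN arrays on high-dose levodopa lie between 8.29 and 9.81, below all dSPN arrays of lesioned mice on saline, which lie between 10.11 and 11.24.

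The gap between the lines was also read in each group of lesioned mice. No member passed in the limma test of whether the lesion itself changed the gap. The counts of calls in mock mice and in lesioned mice on saline therefore do not show such a change. In lesioned mice on saline 2 members passed, Cldn11 (-0.72, SE 0.218, adjusted p 0.011) and Ugt8a (-0.91, SE 0.35, adjusted p 0.0495), both lower in dSPN, where 11.4% of all genes were lower. The call of Ugt8a was lost with array weights (adjusted p 0.0759), without a filter (0.0648), with the groups compared alone (0.0577), with the mean over its probe sets (0.165) and on its other probe set (0.747). Other calls were gained. Pdgfra passed under several alternatives, such as array weights (-0.76, adjusted p 0.0298) and the mean over its probe sets (0.0199). Cnp passed with the mean over its probe sets (0.0363). Mobp passed on 1436263_at (-1.38, adjusted p 0.000159), and Mbp was higher in dSPN on 1425263_a_at (1.13, adjusted p 0.000343). All 9 members were below 0 in the main fit. In these mice the gene value of Mbp was 10.62 ± 0.34 in dSPN (SD, n = 11) and 10.86 ± 0.44 in iSPN (n = 7), a difference of -0.24 whose interval ran from -0.68 to 0.19. On low-dose levodopa 8 members were lower in dSPN, all except Mog, against 20.2% of all genes. The arrays of the lines did not overlap there for Mobp (-2.24, 4.71-fold), Ugt8a (-2.61, 6.1-fold) and Cldn11 (-2.01, 4.03-fold). The share of all genes whose arrays lay without overlap was not counted, for this or any other comparison. On high-dose levodopa 7 members were lower in dSPN, all except Mog and Pdgfra, against 24.6% of all genes, and the arrays did not overlap for Mbp (-1.31) and Cnp (-0.97). The lines lie in separate runs, so for these 4 comparisons line and run of title numbers, whose meaning the labels leave unsaid, cannot be told apart.

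The lesion alone, which asks what dopamine loss did, called no member in either line in the limma fit. In dSPN, where 2.48% of all genes were called, 1 member had an unadjusted p under 0.05: Cldn11 was 7.55 ± 0.40 in mock (SD, n = 10) and 8.0 ± 0.39 after the lesion (n = 11), a change of 0.45 with an interval of 0.05 to 0.84 and an adjusted p of 0.288. Mbp changed by 0.26 (interval -0.13 to 0.66). In iSPN, where 6.2% of all genes were called, Mobp alone had an unadjusted p under 0.05, with a change of -0.66 (interval -1.18 to -0.14, adjusted p 0.127), from 10.05 ± 0.59 (n = 10) to 9.39 ± 0.71 (n = 7). Across the members the intervals reached up to 0.94 (Ugt8a) in dSPN and down to -1.18 (Mobp) in iSPN.

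High-dose levodopa, the regimen chosen to induce severe dyskinesia, came with a fall of mature oligodendrocyte RNA in the dSPN purifications. Mal, a membrane proteolipid of myelin, had its lowest, median and highest value at 8.29, 8.82 and 9.61 in lesioned mice on saline and at 6.20, 7.03 and 8.0 on the high dose. All 11 treated arrays lay below all 11 control arrays. Mal fell by 1.74 on the log2 scale (SE 0.224, adjusted p 6.45e-10), a 3.34-fold lower level. Mbp went from 10.11, 10.60 and 11.24 on saline to 8.29, 9.23 and 9.81 on the high dose, again without overlap, and fell by 1.37 (SE 0.193, adjusted p 9.43e-09). Mobp went from 8.36, 8.89 and 9.68 to 6.55, 7.86 and 8.26, without overlap, and fell by 1.30 (SE 0.225, adjusted p 1.41e-06). How many of all genes also lay without overlap was not counted.

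The other members of the mature sheath fell with some overlap. The lipid enzyme Ugt8a fell by 1.61 (SE 0.308), Cldn11 by 1.35 (SE 0.192), Mag by 1.28 (SE 0.307) and Cnp by 0.905 (SE 0.165). In all, 7 of the 9 members passed and all 7 fell, where 25.5% of all genes tested fell. Mog (-0.51, interval -0.95 to -0.06, adjusted p 0.055) and Pdgfra (-0.45, interval -0.90 to -0.01, adjusted p 0.0887) were below 0 without passing. The median change of the 9 members was -1.30 and that of all genes was -0.04. Run 2 held 9 high-dose and 6 saline arrays of dSPN, and within it Mbp fell by 1.43 (SE 0.234, adjusted p 0.000172) and Mal by 1.82 (SE 0.279, adjusted p 9.72e-05). In that run 8 members passed, Mog among them (-0.48, adjusted p 0.0391), and all 9 were below 0.

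Low-dose levodopa, chosen to relieve the motor deficit without conspicuous dyskinesia, came with a fall in dSPN as well. Mbp had its lowest, median and highest value at 8.46, 9.78 and 10.08 on the low dose, just under the control range that began at 10.11, and fell by 1.02 (SE 0.189, adjusted p 1.07e-05). Cldn11 went from 7.38, 8.01 and 8.74 on saline to 6.01, 6.50 and 7.20 and fell by 1.38 (SE 0.188, adjusted p 7.95e-09). Ugt8a went from 5.12, 5.95 and 6.97 to 2.29, 4.47 and 5.45 and fell by 1.69 (SE 0.302, adjusted p 5.01e-06). Of these, Mbp and Cldn11 did not overlap between the groups, nor did Mal (-1.35) and Mobp (-1.32), while Ugt8a overlapped in some arrays. Genes without overlap were not counted over all genes here either.

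Mag (-1.53, SE 0.3) and Cnp (-0.95, SE 0.161) fell as well. With Pdgfra (-0.64, SE 0.217, adjusted p 0.0171), 8 of the 9 members passed and all 8 fell, where 19% of all genes fell. Mog did not pass (-0.13, interval -0.56 to 0.31). Mog and Pdgfra had means of 4.58 and 4.66 over all arrays, close to the array medians of 4.31 to 4.42. In treated dSPN arrays Ugt8a had a mean of 4.41 on the high dose and 4.33 on the low dose, and Mag of 4.71 and 4.46. How much of a fall, or of a gap between the lines, can be seen at such levels was not tested. The low-dose and saline groups of dSPN share no run, so no value within a run can be given. In a fit with run as a fixed block, 7 of the 8 kept an adjusted p under 0.05, with Mbp at -0.95 and adjusted p 0.0295, and Pdgfra did not (-0.16, adjusted p 0.818).

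No difference between the doses was detected for the members in dSPN. No member passed in the limma fit of high against low dose, where 6.8% of all genes were called, and none had an unadjusted p under 0.05. Mbp differed by -0.35 (interval -0.73 to 0.03), Mal by -0.39 (interval -0.83 to 0.04) and Mobp by 0.02 (interval -0.42 to 0.46). Against the mock-lesioned dSPN arrays the drug groups were not tested, and the arrays are given as a description. All 11 high-dose arrays lay below the lowest mock array for Mbp, and 10 of 11 did for Mobp and for Cnp. Of the 12 low-dose arrays, 7 lay below all mock arrays for Mbp and 10 for Mobp and for Cnp. For Mag the counts below all mock arrays were 6 of 11 on the high dose and 8 of 12 on the low dose. They were 9 and 7 for Mal, 9 and 8 for Ugt8a, 8 and 8 for Cldn11, 3 and 2 for Mog, and 0 and 1 for Pdgfra. Such counts were not made for all genes.

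**Figure D2:**
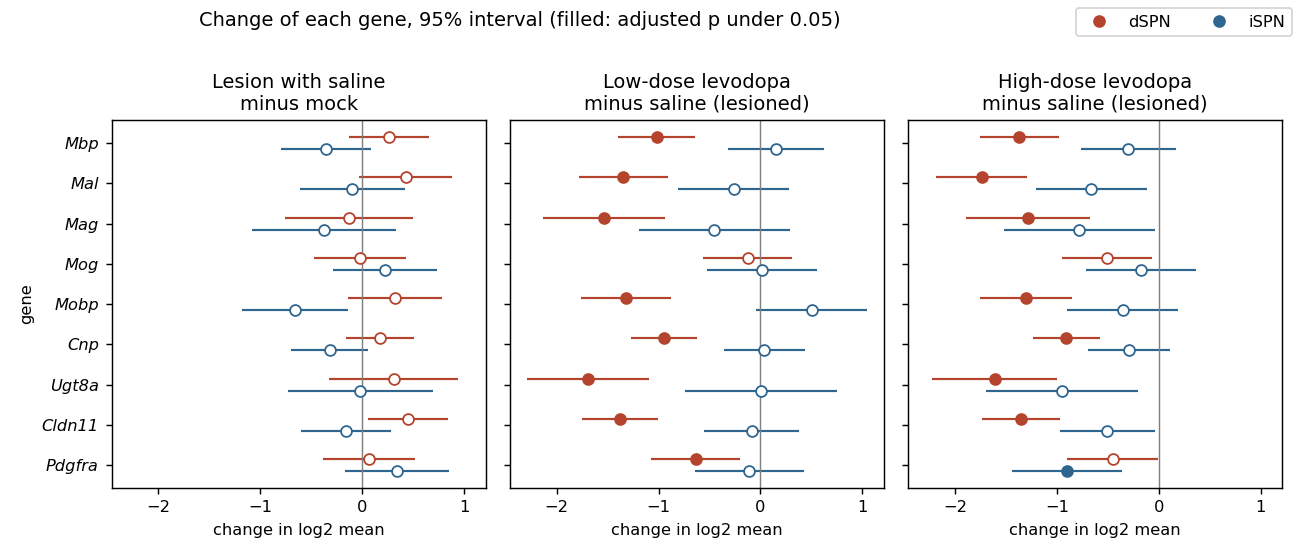
Change in the log2 mean (horizontal axis) of each gene (vertical axis) with its 95% interval, for the lesion, the low dose and the high dose, dSPN in red and iSPN in blue; filled points passed at adjusted p under 0.05. In dSPN 8 genes passed with the low dose and 7 with the high dose, all to the left of 0, and in iSPN Pdgfra on the high dose (-0.90) was the one that passed.

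In the iSPN purifications no mature member passed with either dose. On the high dose Mbp was 10.56 ± 0.27 (SD, n = 8) against 10.86 ± 0.44 in lesioned controls (n = 7), a change of -0.30 (interval -0.76 to 0.17). All 9 members were below 0, with Mal at -0.66 (interval -1.20 to -0.12, adjusted p 0.11) and Ugt8a at -0.95 (interval -1.70 to -0.20, adjusted p 0.0928). Pdgfra, the progenitor receptor, fell from 5.35 ± 0.70 to 4.45 ± 0.51, by 0.90 (SE 0.269, adjusted p 0.0205), which made 1 of the 9 members lower against 3.59% of all genes. Its call was lost with run as a fixed block (-0.68, adjusted p 0.455), in a fit of the iSPN arrays alone (-0.90, adjusted p 0.0750) and on its other probe set (adjusted p 0.164).

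On the low dose no member passed in iSPN in the limma fit, where 4.18% of all genes were called, and none had an unadjusted p under 0.05. Mbp changed by 0.15 (interval -0.31 to 0.62) and Mobp by 0.50 (interval -0.04 to 1.05). Between the doses no member passed either, against 0.173% of all genes, while 3 members had an unadjusted p under 0.05, among them Mobp (-0.85, adjusted p 0.153).

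The difference between the lines in the drug effect was tested itself, as the change in dSPN minus the change in iSPN. For the high dose it passed for Mbp (-1.07, SE 0.303, adjusted p 0.00537), Mal (-1.08, SE 0.352, adjusted p 0.0167), Cldn11 (-0.85, SE 0.302, adjusted p 0.0303) and Mobp (-0.95, SE 0.354, adjusted p 0.0394), 4 of the 9 members against 14.5% of all genes in that direction. Mobp no longer passed without replicate 7 of the iSPN lesion group on saline (adjusted p 0.0561), without a filter (0.0504) with arrays centred on their medians (0.0700) or on 3 of its other probe sets (0.148 to 0.465). Cldn11 no longer passed with arrays centred (0.0622), and Mal with the mean over its probe sets (0.0589) and on its other probe set (0.316). Mbp kept its call without a filter, with arrays centred, with the mean over probe sets and without that replicate, and lost it on 3 of its other probe sets (adjusted p 0.0527 to 0.185). For the low dose it passed for 6 members against 7.79% of all genes: Mobp (-1.82), Ugt8a (-1.70), Cldn11 (-1.29), Mbp (-1.17), Mal (-1.08) and Cnp (-0.98). With run as a fixed block Mobp alone kept its low-dose call, and Mbp was then at -0.97 with an adjusted p of 0.183. Over probe sets, the low-dose difference passed on 2 of 5 for Mobp, 1 of 2 for Ugt8a and 1 of 2 for Mal. It passed on 2 of 3 for Cnp and 6 of 8 for Mbp. For the lesion no member passed in the limma fit, against 4.86% of all genes in either direction, and 3 members had an unadjusted p under 0.05.

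Over the 25 probe sets above the filter, 18 fell with the high dose and 18 with the low dose in dSPN, and none rose, where 24.7% and 18.1% of all probe sets tested fell. Both probe sets of Mal and both of Ugt8a fell with either dose. All 3 of Cnp fell with the high dose, and 2 of 3 with the low dose. Of the 5 for Mobp, 3 fell with the high dose and 2 with the low dose.

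Mbp, a gene whose locus also gives transcripts outside the myelin sheath, had 8 probe sets, which did not all move alike. Of these, 6 were lower in dSPN than in iSPN in mock mice, by -0.60 to -0.91, and fell with the high dose, by -1.04 to -1.42. The probe set 1425263_a_at ran from 5.62 over 6.32 to 6.95 in mock dSPN and from 3.68 over 5.49 to 6.42 in mock iSPN, and was higher in dSPN by 0.93 (SE 0.228, adjusted p 0.00147 over all probe sets). It was also higher in dSPN in lesioned mice on saline (1.13) and on the low dose (0.76). With levodopa it changed by -0.03 on the high dose and -0.06 on the low dose, with adjusted p of 0.912 and 0.862. The probe set 1425264_s_at differed by 0.11 between the lines in mock mice and changed by -0.28 on the high dose (adjusted p 0.11). Which transcripts each probe set reads was not analysed here.

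**Figure D3:**
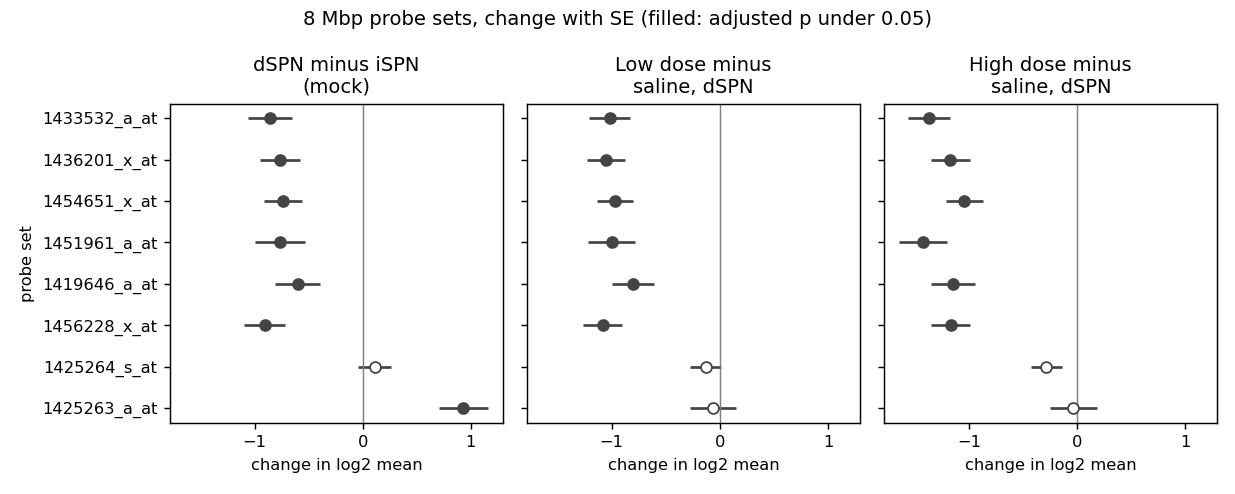
Change in the log2 mean (horizontal axis) with its SE for each of the 8 Mbp probe sets (vertical axis), for dSPN minus iSPN in mock mice and for each dose against saline in lesioned dSPN mice; filled points passed at adjusted p under 0.05. In each panel the same 6 probe sets passed and lie to the left of 0. In the first panel 1425263_a_at passed as well, to the right of 0 at 0.93, and in the others it lies at -0.06 and -0.03 without passing.

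Other genes of the oligodendrocyte lineage were read from 4 lists, of which 63 genes were tested. In mock mice 30 of the 63 were lower in dSPN and 1 was higher, where 10.9% of all genes were lower and 11.6% higher. With the high dose in dSPN 34 fell and 2 rose, where 25.5% of all genes fell and 20.1% rose. With the low dose 29 fell and none rose, where 19% fell and 15.1% rose. In iSPN 1 fell and 2 rose with the high dose, where 3.59% of all genes fell and 6.27% rose. In dSPN their median change was -0.50 with the high dose and -0.56 with the low dose. In iSPN their median change was -0.28 with the high dose, where that of all genes was 0.01, and 0.04 with the low dose.

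By role, the genes of myelin membrane and adhesion had 8 of 14 falling with the high dose and none rising, where 25.5% of all genes fell. They included the tetraspanin Tspan2 (-1.21, SE 0.282), the proteolipid Pllp (-1.10) and the cytoskeletal protein Ermn (-1.08). The genes of myelin lipid and mature oligodendrocytes had 18 of 31 falling and 1 rising. Fa2h, which hydroxylates the fatty acids of myelin lipids, fell by 1.72 (SE 0.269, adjusted p 1.34e-07), and the sphingosine phosphate receptor S1pr5 fell by 1.67. S1pr5 fell by 2.04 with the low dose.

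The transcription factors of the lineage had 6 of 9 falling with the high dose, led by Sox10 (-1.62, SE 0.318, adjusted p 1.71e-05), St18 (-1.08), Nkx2-2 (-0.92) and Olig1 (-0.92). In mock mice 5 of the 9 were lower in dSPN, against 10.9% of all genes, with Myrf, which switches on myelin genes, at -1.53. The progenitor list, to which Pdgfra belongs by its role, had 2 of 9 falling with the high dose, a share close to that of all genes (25.5%): Epn2 (-1.07) and Ptprz1 (-0.99), both of which other cells also make. Its matrix gene Vcan rose by 1.37 (adjusted p 0.00411).

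Markers of other glia were read beside these. Of 14 astrocyte genes, 9 fell with the high dose and 8 with the low dose in dSPN, and none rose, with medians of -0.71 and -0.70. Of all genes, 25.5% fell with the high dose and 19% with the low dose. The gap junction gene Gja1 fell by 1.27 and 1.53 with the high and low dose, and the sodium pump subunit Atp1b2 by 1.47 and 1.18. The mean of the list lay between 7.45 and 8.03 in lesioned dSPN arrays on saline, between 6.53 and 7.45 on the high dose and between 6.73 and 7.56 on the low dose. In mock mice 4 of the 14 were lower in dSPN, where 10.9% of all genes were lower. The list mean lay between 7.10 and 7.85 in mock dSPN arrays, against 7.29 to 8.30 in iSPN.

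For the counts that follow, 25.5% of all genes fell and 20.1% rose in dSPN with the high dose, and 19% fell and 15.1% rose with the low dose. Of 11 microglial genes, 1 fell (Tyrobp, -0.76) and 1 rose (Ctss, 1.33) with the high dose. Of the 5 endothelial and mural genes above the filter, none passed with the high dose and 1 fell with the low dose (Rgs5, -1.18). Neuronal markers changed too. Of 12 markers shared by the spiny projection neurons, 8 fell and 3 rose with each dose in dSPN, and with the high dose 4 of the 9 dSPN markers tested fell while 2 rose, with the opioid peptide gene Pdyn up by 2.10. Of 5 iSPN markers, 4 fell and 1 rose with the high dose in dSPN and 3 fell with the low dose, with Drd2 down by 0.72 on the high dose (adjusted p 0.000268) and by 0.67 on the low dose. The part of these markers in the change of the members was not tested.

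Over arrays the deviations of the mature members from their group means were correlated with those of Mbp, to a degree that varied between groups. Over the deviations of 77 arrays from their group means, Mbp correlated with Cldn11 at r = 0.70 (rho 0.65) and with Mobp at r = 0.68 (rho 0.54), each with an adjusted permutation p of 2.8e-05 for r, from the smallest p that 100000 permutations within groups can give (1e-05). The other mature members followed with r of 0.60 (Mal), 0.58 (Ugt8a), 0.56 (Cnp), 0.46 (Mag) and 0.39 (Mog, adjusted permutation p 0.0019), and with rho of 0.49, 0.43, 0.48, 0.41 and 0.38 in the same order, the highest adjusted permutation p of these being 0.00352. Within the 8 groups the r of Mbp ran from 0.51 to 0.90 with Cldn11, from 0.47 to 0.96 with Mobp, from 0.14 to 0.94 with Mal, from 0.32 to 0.83 with Ugt8a and from 0.18 to 0.74 with Mag. It ran from -0.03 (dSPN on the high dose) to 0.98 with Cnp and from -0.16 (lesioned iSPN on saline) to 0.73 with Mog. In dSPN on the low dose r was 0.14 with Mal, 0.18 with Mag, 0.17 with Mog and 0.12 with Cnp. Within 6 runs the r with Cldn11 ran from 0.38 to 0.90. Without the 2 arrays farthest from the median of Mbp, the r over all groups with Cldn11 was 0.67. Over the 28 pairs of the 8 mature members r ran from 0.17 to 0.71, with a median of 0.52.

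For Pdgfra the pooled relation did not pass and the groups went in opposite directions. Its r with Mbp was -0.09 over all groups (rho -0.07, adjusted permutation p 0.597), but -0.92 in mock iSPN and -0.52 in lesioned iSPN on saline against 0.50 in dSPN on the low dose and 0.46 in mock dSPN (n = 10, 7, 12 and 10). Over all groups its r with the 8 mature members ran from -0.16 to 0.10. The mean of the astrocyte list followed Mbp with r = 0.73 (rho 0.45, adjusted permutation p 2.8e-05), and with r = 0.71 without the 2 farthest arrays. In this family of 14 relations, the means of the microglial (r = 0.18, rho 0.11, adjusted permutation p 0.217), endothelial and mural (r = 0.14, rho 0.13, 0.256) and shared spiny projection neuron lists (r = -0.0043, rho -0.03, 0.974) did not pass over all groups. Groups differed here too. For the shared neuron list r ran from -0.79 (iSPN on the high dose) to 0.53 (mock iSPN). For the microglial list it ran from -0.23 (dSPN on the low dose) to 0.78 (mock dSPN), and for the endothelial and mural list from -0.15 to 0.66.

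The receptor of the other line was tested too. In the 33 iSPN arrays Drd1, which marks direct pathway neurons, rose and fell with Mbp (r = 0.60, rho 0.61, adjusted permutation p 0.000647), with r from 0.29 to 0.80 in the 4 groups and from 0.63 to 0.84 in the 3 runs, and r = 0.48 without the 2 farthest arrays. In the 44 dSPN arrays Drd2 did not (r = 0.07, rho 0.13, adjusted permutation p 0.721).

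**Figure D4:**
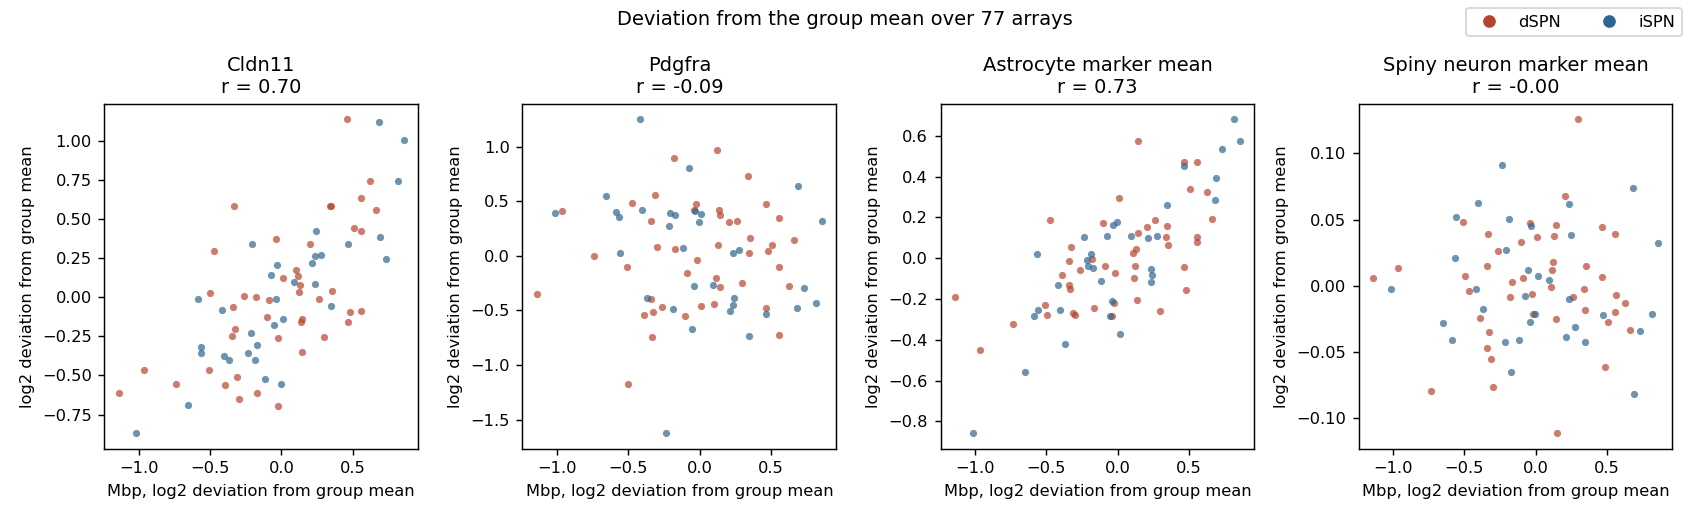
Deviation of each array from its group mean on the log2 scale, with Mbp on the horizontal axis and Cldn11, Pdgfra, the mean of the astrocyte list and the mean of the shared spiny projection neuron list on the vertical axes, whose ranges differ between panels; 1 point per array, dSPN in red and iSPN in blue. Cldn11 (r = 0.70) and the astrocyte mean (r = 0.73) rise with Mbp, and Pdgfra (r = -0.09) does not.

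As a description over 77 arrays, the genes whose deviations were most like the mean of the 8 mature members were Kif5a (r = 0.83), Gatm (0.76), Tmem88b (0.74), Cryab (0.74), Tspan2 (0.74), Oip5os1 (0.73), Apod (0.73), Il33 (0.72), Ermn (0.72) and Hipk2 (0.72). Of these 10, Tmem88b, Cryab, Apod, Il33, Tspan2 and Ermn are in the oligodendrocyte lists. Kif5a, which encodes a kinesin motor of neurons, is in none of the lists and ranked 2 among all genes, after Cldn11, which is itself part of that mean. Those most like Pdgfra had lower likeness: Zfp384 (0.50), Babam1 (0.43), Zfp566 (0.41), Asprv1 (0.40) and Hpcal1 (0.39), none of them in a list.

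Whether Mal, Mag, Mobp, Cnp, Ugt8a and Cldn11 fell in another proportion than Mbp in dSPN was tested on the log2 ratio to Mbp on each array, a comparison chosen after the values were seen (permutation of arrays with 100000 resamples, 16 tests with Mog and Pdgfra). None of these 6 passed on either dose, the nearest being Cldn11 on the low dose (-0.36, adjusted permutation p 0.0895). Mog passed, with a smaller fall than Mbp, on the high dose (0.86) and the low dose (0.89, adjusted permutation p 0.00112 for each). Pdgfra passed on the high dose (0.91, adjusted permutation p 0.0441) and not on the low dose (0.38, 0.174). Mog and Pdgfra had low levels in every group, and Ugt8a and Mag had low levels in the treated dSPN groups. The part of these low levels in the ratios was not tested.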

How the data were processed

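RNA of 77 single-mouse purifications was hybridised to Affymetrix mouse expression arrays, 1 per mouse. The table the authors deposited gives a log2 value for each probe set, normalized over all arrays; RMA and affy are named in the submitters' processing notes, with no version. Array medians lay between 4.31 and 4.42. Precision is limited by how many arrays each group has; scanner files were not analysed here.

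Probe sets with 1 annotated symbol (34958 of 45101) were kept. A limma 3.58.1 fit (R 4.3.3; lmFit, eBayes, 8 group means, 69 residual degrees of freedom) gave two-sided tests, adjusted by Benjamini-Hochberg within each comparison over 13271 genes, and a second fit covered 23974 probe sets. A gene is called at adjusted p under 0.05. The fit was tested on simulated data. Each array is a separate mouse by the labels.

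The members and lists were chosen with earlier results of these data known. All members are named, with up to 4 called genes of the largest change per oligodendrocyte list, up to 2 per other list, Drd1 and Drd2, and the genes most like the members. Promoters are from RefSeq. Alternatives were run as a block, array weights, centring, each line alone, other filters, another scale and other probe sets; the lines compared on their groups alone and the fits without the 2 arrays least like their groups were chosen after seeing the data.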

Additional observations from a re-analysis of the deposited data

Results flagged for a closer look

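In the difference between the lines in the drug effect (dSPN minus iSPN), 10 values passed the limma test. For the high dose they were Mbp (-1.07), Mal (-1.08), Mobp (-0.95) and Cldn11 (-0.85). For the low dose they were Mbp (-1.17), Mal (-1.08), Mobp (-1.82), Cnp (-0.98), Ugt8a (-1.70) and Cldn11 (-1.29). In each case the change in dSPN lay below that in iSPN.

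A single array stood far from its group, by the gap to its nearest neighbour over the range of the group, in 4 cases among the 45 combinations of gene and group of 7 to 10 arrays, where chance gives about 1 in 20. The lowest Mbp value of iSPN on the high dose was 10.00. The highest Mobp value of lesioned iSPN on saline was 10.96. The highest Cnp value of iSPN on the high dose was 10.83. The lowest Pdgfra value of iSPN on the low dose was 3.61.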

How the results depend on the processing

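Of 1632 values of a member under an alternative, 1503 kept their direction and their side of the threshold, 51 lost a call, 21 gained one, 7 turned direction with a call in the main fit, in the alternative or in both, and 50 differed in sign without a call on either side. The falls of Mbp, Mal, Mag, Mobp, Cnp, Ugt8a and Cldn11 in dSPN on either dose kept their calls under every alternative other than another probe set. Line differences have no value with run as a fixed block, since runs lie within lines. No paired analysis was possible because the title numbers are unique to each array and no number is shared between groups.

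The turned values were on other probe sets: for Mbp in dSPN minus iSPN, 0.11 (mock) and 0.19 (low dose) on 1425264_s_at and 0.93 (mock), 1.13 (lesion with saline), 0.76 (low dose) and 0.50 (high dose) on 1425263_a_at, and for Mobp on the low dose in dSPN 0.0013 on 1441308_at. The line difference in lesioned mice on saline had 1 member without a filter and 1 with the groups compared alone, against 2. The iSPN high dose had 0 with run as a fixed block, 0 with each line alone, 0 with the filter at the 60th percentile (which removes Mog and Pdgfra), 2 with the mean over a gene's probe sets and 2 on log2(linear + 16), against 1. The iSPN doses differed in 1 with run as a random block, against 0. The high-dose difference between lines had 2 with arrays centred, against 4, and the low-dose difference 1 with run as a fixed block, against 6. The cause was not tested in these cases.

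Counts over all genes that moved by over 1.5 times did so mostly with run as a fixed block: the dSPN lesion from 329 to 88 (554 with each line alone, 776 with array weights), the dSPN low dose from 4531 to 1847, dSPN high against low dose from 903 to 174 (1375 with array weights), the iSPN lesion from 823 to 106 (350 with each line alone, 438 with array weights), the iSPN high dose from 1309 to 249 (577 with each line alone), iSPN high against low dose from 23 to 0 (158 with run as a random block, 3 with each line alone, 42 with the mean over probe sets), and the differences between lines from 645 to 148 (lesion), 3319 to 2077 (high dose) and 1961 to 703 (low dose). The iSPN low dose went from 555 to 153 with each line alone.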

Other observations

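In iSPN on the high dose 3 of the 63 tested genes of the oligodendrocyte lists passed, a smaller share than that of all genes (9.86%), so the count says nothing particular about the lists. The factor Sox8 rose by 0.76 (SE 0.122, adjusted p 6.33e-06 in the limma fit), Epn2 rose by 0.62 (SE 0.145, adjusted p 0.00227) and Lhfpl3 fell by 0.79 (SE 0.202, adjusted p 0.00556). Epn2 fell in dSPN on the same dose (-1.07), and the difference between the lines was -1.69 (SE 0.189, adjusted p 2.99e-11). For Sox8 that difference was -1.25 (SE 0.158, adjusted p 1.81e-09) and for Lhfpl3 1.03 (SE 0.262, adjusted p 0.00169).

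In mock mice 4 of 11 microglial genes were lower in dSPN than in iSPN, where 10.9% of all genes were lower, led by Tyrobp (-1.18, SE 0.299, adjusted p 0.00211) and C1qc (-0.98, SE 0.346, adjusted p 0.031).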
